A study of Mus musculus with 2 samples.

Results

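The genes described here are 9 that mark naive and resting T cells: *Lef1*, *Tcf7*, *Foxo1*, *Klf2*, *Foxp1*, *Satb1*, *Bach2*, *Ccr7* and *Il7r*. They were chosen by name, with earlier results of these data known, and all 9 were found among the 32285 genes of the deposited matrices. Their levels and detection were compared between genotypes in 3 groups of T cells, and between cells with and without *Cd44*, the activation marker CD44.

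Single-cell RNA sequencing was performed on cells carrying the αβ T cell receptor of mice aged 14 weeks, taken from spleen pooled with inguinal and cervical lymph nodes. The mice were 1 *Foxp3Cre* WT and 1 DKO-severe, and both carried Cre expressed from *Foxp3*. In the DKO-severe mouse the *Tet2* and *Tet3* alleles were floxed, so that Cre deletes both genes in cells that express or once expressed *Foxp3*, the lineage factor of regulatory T (Treg) cells. The paper describes this Cre as leaky at low levels while blood cells develop, so other cells may carry the deletions too. The severe class was assigned from the number of leukocytes in spleen and lymph nodes. TET enzymes oxidise methylated cytosine in DNA. The cells of both mice were told apart by hashtag antibodies and sequenced in 1 mRNA library. With n = 1 mouse per genotype no test between genotypes was possible: every interval below is a 95% interval of the counting error only, and mouse, hashtag and genotype cannot be told apart.

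Naive T cells circulate through lymphoid organs in a resting state. LEF1 and TCF1 (encoded by *Tcf7*) are related factors that maintain T cell identity and are high before activation. FOXO1 drives transcription of *Klf2*, *Ccr7* and *Il7r*, and through these it links quiescence to recirculation and to survival on interleukin 7. FOXP1 and BACH2 restrain activation and effector differentiation, and SATB1 organises chromatin in thymocytes and naive cells. After activation by antigen, CD44 goes up and many of these genes go down, while *Il7r* returns in memory cells.

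After filtering there were 6583 WT and 6359 DKO-severe cells, with a median of 5614 and 8056 UMIs (unique molecular identifiers, each counting 1 captured RNA molecule). Foxp3-negative cells had a UMI of *Cd3d*, *Cd3e* or *Cd3g* and of *Cd4*, and none of *Cd8a*, *Cd8b1* or *Foxp3*. They numbered 1674 in WT and 2406 in DKO-severe. Foxp3-positive cells met the same rule but had a *Foxp3* UMI, and numbered 63 and 333. Cd8 cells had *Cd3* and *Cd8a* or *Cd8b1* UMIs and no *Cd4*, and numbered 3059 and 1733. Summed T cell markers were high in each gate (4013 to 6746 CPM, counts of a gene for every 1000000 UMIs of the gate). At full depth the 6 myeloid markers came to 155 to 202 CPM in WT gates and 1301 to 4686 CPM in DKO-severe gates. *S100a9* was the highest of them in DKO-severe. When cells were thinned to equal depth and then gated, these sums differed less between genotypes. Cd8 cells without and with *Cd44* then had 152 and 329 CPM in WT, and 168 and 201 CPM in DKO-severe. Foxp3-negative cells had 160 and 163 CPM in WT, and 803 and 478 CPM in DKO-severe. Whether and by how much DKO-severe was higher thus depended on the depth and cells used. Such sums are not given for thinned Foxp3-positive cells. The share of cells with 3 or more UMIs of B cell or myeloid markers was 8.24% in WT and 39.3% in DKO-severe for the Foxp3-negative gate, 11.1% and 64.3% for the Foxp3-positive gate, and 9.51% and 18.3% for the Cd8 gate. These shares are at full depth, where DKO-severe cells had more UMIs. In these gates the medians were 7936.5 against 5256.5 in WT, 11593 against 5288, and 9187 against 6258 UMIs. With thinned cells the Foxp3-negative shares without and with *Cd44* were 3.15% and 4.09% in WT, and 15.0% and 19.2% in DKO-severe. In Cd8 cells they were 2.35% and 5.05% in WT, and 3.49% and 4.58% in DKO-severe. The values are repeated below without the cells that held 3 or more such UMIs. *Tet2* and *Tet3* RNA stayed detectable in DKO-severe Foxp3-positive cells, at 71.1 and 86.4 CPM against 56.2 and 92.1 CPM in WT. The deposited counts are per gene and do not resolve exons, so RNA with the floxed exons deleted would be counted too, and this does not check the deletion.

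The 9 genes lie on mm10 at the following places, each protein coding. *Lef1* is at chr3:131110471-131224356 (plus strand), *Foxo1* at chr3:52268336-52353221 (plus), *Bach2* at chr4:32238804-32586108 (plus) and *Klf2* at chr8:72319033-72321656 (plus). On the minus strand, *Foxp1* is at chr6:98925338-99522721, *Tcf7* at chr11:52252371-52283014, *Ccr7* at chr11:99144196-99155077, *Il7r* at chr15:9505788-9530176 and *Satb1* at chr17:51736187-51833290. Their spans run from 2.62 kb (*Klf2*) to 597 kb (*Foxp1*). *Lef1*, *Tcf7*, *Foxo1*, *Foxp1*, *Satb1* and *Bach2* overlap other annotated genes on the same strand, and whether reads in introns were counted is not given in the sources used here. *Klf2*, *Ccr7* and *Il7r* overlap none.

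Upstream sequences of 3 genes are shown because they mark the ends of the range in the Foxp3-negative gate: *Lef1* and *Satb1* had the lowest ratios of DKO-severe to WT and *Klf2* the one nearest to 1. Each ends before the 5′-most RefSeq start of its gene (GRCm38.p6), on the gene's strand, and the *Klf2* window leaves out the 29 bases that the gene annotation counts as transcribed. Capitals mark CACACCC or its reverse complement, letters that KLF factors are known to bind.
Lef1 (chr3:131110047-131110296, plus): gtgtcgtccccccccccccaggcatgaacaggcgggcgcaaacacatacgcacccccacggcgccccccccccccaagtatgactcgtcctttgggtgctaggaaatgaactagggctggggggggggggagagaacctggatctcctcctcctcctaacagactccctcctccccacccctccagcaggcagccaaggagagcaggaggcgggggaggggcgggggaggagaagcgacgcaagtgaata
Satb1 (chr17:51833291-51833540, minus): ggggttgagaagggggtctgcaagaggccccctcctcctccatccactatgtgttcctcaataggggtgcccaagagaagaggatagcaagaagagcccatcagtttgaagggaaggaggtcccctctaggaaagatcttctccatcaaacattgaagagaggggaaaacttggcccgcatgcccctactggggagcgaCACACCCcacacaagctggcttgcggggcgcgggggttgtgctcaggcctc
Klf2 (chr8:72318812-72319032, plus): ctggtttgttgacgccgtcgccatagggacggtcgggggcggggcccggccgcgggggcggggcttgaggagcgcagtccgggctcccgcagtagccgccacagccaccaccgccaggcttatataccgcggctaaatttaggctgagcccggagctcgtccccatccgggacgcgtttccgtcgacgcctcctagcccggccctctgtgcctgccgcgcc
RefSeq gave a window for 8 of the 9 genes (not *Ccr7*). CACACCC occurred on either strand in the 250 bases before the 5′-most RefSeq start for 1 of the 8 (*Satb1*) and of 6.90% of all 27025 genes with a window. The forkhead letters TGTTTAC and the TCF/LEF letters CTTTGAT were in none of the 8, against 3.06% and 3.26% of all windows. The windows of *Bach2*, *Foxp1* and *Il7r* lie within the annotated spans of these genes, since the gene annotation starts them further upstream. These counts describe the letters in 1 annotated window per gene.

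In Foxp3-negative cells all 9 genes were lower in DKO-severe than in WT, and 6 of them were at a log2 ratio of -1 or lower. Over all genes at 20 CPM or more in the same comparison, 3.29% were at -1 or lower (207 of 6299), and the median log2 ratio was 0.10. The median of the 9 genes was -1.58. Counted as mean UMIs per cell without scaling, *Klf2* and *Il7r* were slightly higher in DKO-severe (log2 ratios of 0.30 and 0.093). Foxp3-negative cells of the DKO-severe mouse hold any cell that lost *Foxp3* as well as cells that never had it, and the counts do not separate them. In both genotypes the gate can also hold cells that express *Foxp3* but gave no UMI of it.

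Among the TCF family, *Lef1* was at 1123 CPM in WT against 251 CPM in DKO-severe, for a log2 ratio of -2.16 (-2.21 to -2.12). *Tcf7* was at 504 and 253 CPM, for a log2 ratio of -0.99 (-1.05 to -0.94), just outside the -1 line. The related pair thus differed in size, 4.48-fold lower for *Lef1* and 1.99-fold lower for *Tcf7*. The chromatin organiser *Satb1* was close to *Lef1*, at 890 CPM in WT against 214 CPM in DKO-severe with a log2 ratio of -2.05 (-2.10 to -2.004).

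The factors that restrain activation were also lower. *Foxp1* was at 1481 CPM in WT against 380 CPM in DKO-severe, for a log2 ratio of -1.96 (-1.999 to -1.92). *Bach2* was at 846 and 282 CPM, for a log2 ratio of -1.58 (-1.63 to -1.54). FOXO1 and the genes it is known to drive did not share 1 ratio. *Foxo1* itself was at 345 and 149 CPM, with a log2 ratio of -1.21 (-1.28 to -1.14), the member just inside the -1 line. Of its known targets, *Ccr7*, the chemokine receptor for entry into lymph nodes, was at 186 and 47.7 CPM, for a log2 ratio of -1.96 (-2.07 to -1.85). *Klf2*, the factor that drives exit through *S1pr1*, was at 566 and 424 CPM, only -0.42 (-0.46 to -0.37). *Il7r*, the interleukin 7 receptor α chain, was at 503 and 325 CPM, for a log2 ratio of -0.63 (-0.68 to -0.58).

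**Figure D1:**
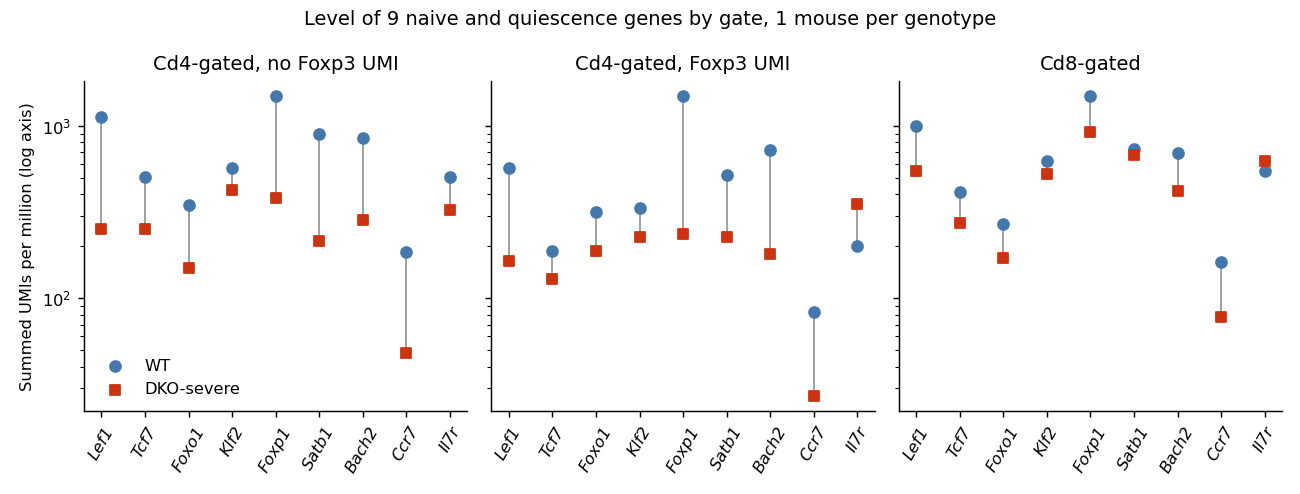
CPM (log axis) of the 9 genes in the 3 gates, with 1 point per genotype and gene and a line joining WT (circle) and DKO-severe (square); there is 1 mouse per genotype, so no replicate error. In the Foxp3-negative gate every square lies below its circle (as mean UMIs per cell *Klf2* and *Il7r* would not), from *Lef1* (1123 and 251 CPM) to *Klf2* (566 and 424 CPM), while *Il7r* lies higher in DKO-severe in both other gates.

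In Foxp3-positive cells 8 of the 9 genes were lower in DKO-severe and 5 were at -1 or lower. As mean UMIs per cell, though, *Tcf7*, *Klf2* and *Foxo1* were higher (log2 ratios of 0.54, 0.51 and 0.33). The share of all genes tested at -1 or lower was 5.7%, and the median of the 9 was -1.19 against 0.05 over all genes. *Foxp1*, at 1485 CPM in WT, was at 234 CPM in DKO-severe, for a log2 ratio of -2.66 (-2.80 to -2.52) and the lowest of the 27 values of the 9 genes in 3 gates. *Bach2* was at 723 and 180 CPM, -2.01 (-2.19 to -1.82), *Lef1* at 568 and 165 CPM, -1.79 (-1.99 to -1.58), and *Ccr7* at 83.1 and 26.9 CPM, -1.63 (-2.16 to -1.06). *Satb1* was at 517 and 227 CPM, for a log2 ratio of -1.19 (-1.39 to -0.98). *Foxo1*, *Klf2* and *Tcf7* were between -0.74 and -0.53. *Foxo1* reached 0.14 at equal depth, so its direction in this gate depended on the depth used.

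*Il7r* was the exception in Treg-gated cells. It was at 200 CPM in WT against 353 CPM in DKO-severe, for a log2 ratio of 0.82 (0.51 to 1.14). The value rests on 89 UMIs in 63 WT cells and 1746 UMIs in 333 DKO-severe cells, and it ranged from 0.17 (gates of 2 or more UMIs) to 1.89 (mean UMIs per cell) over 11 other settings. *Foxp3* itself was at 204 CPM in WT against 116 CPM in DKO-severe within this gate, which was chosen by a *Foxp3* UMI. The DKO-severe cells of the gate had a median of 11593 UMIs against 5288 in WT, and at equal depth (25 and 82 cells) the log2 ratio of *Il7r* was 1.64.

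Cd8 cells do not normally express *Foxp3* and so Cre, apart from the leaky expression named above. In them 8 of the 9 genes were lower in DKO-severe, but by less. As mean UMIs per cell *Klf2* and *Satb1* were higher (log2 ratios of 0.23 and 0.36). The median of the 9 was -0.66, 1 gene was at -1 or lower, and the share of all genes tested at -1 or lower was 0.872%. That gene was *Ccr7*, at 161 CPM in WT against 77.5 CPM in DKO-severe, for a log2 ratio of -1.06 (-1.15 to -0.97). *Lef1* was at 994 and 547 CPM, for a log2 ratio of -0.86 (-0.90 to -0.83). *Bach2*, *Foxp1*, *Foxo1* and *Tcf7* were between -0.74 and -0.59, *Klf2* was at -0.24 and *Satb1* at -0.11 (-0.15 to -0.08). *Satb1*, among the lowest in Foxp3-negative cells, was thus at 732 and 677 CPM in Cd8 cells. *Il7r* was at 547 CPM in WT against 624 CPM in DKO-severe, for a log2 ratio of 0.19 (0.15 to 0.23). How the ratios differed between gates was not tested, since each rests on the same 2 mice.

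Without the cells that held 3 or more B cell or myeloid marker UMIs, the median of the 9 genes was -1.31 in Foxp3-negative, -1.05 in Foxp3-positive and -0.66 in Cd8 cells. Then 6, 5 and 1 genes were at -1 or lower, and the shares of all genes are not given for these cells. A fixed number of marker UMIs is reached more readily by deeper cells, and DKO-severe cells were deeper. The part of myeloid RNA in the ratios beyond leaving out marker-bearing cells was not tested.

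Levels summed over a gate can be carried by few cells, so detection was compared with every cell thinned at random to 3800 UMIs. This left 1217 WT and 1856 DKO-severe Foxp3-negative cells, 25 and 82 Foxp3-positive cells and 2937 and 1560 Cd8 cells. Before thinning the Foxp3-positive gate held 63 and 333 cells. Gating followed thinning, so a cell that lost its *Foxp3* UMIs in thinning could enter the Foxp3-negative gate. In Foxp3-negative cells all 9 genes were detected in a lower share of DKO-severe cells, with intervals that did not overlap. The share of all genes with intervals apart is not given for any gate. Counts of intervals apart, here and below, therefore have no base rate and describe the 9 genes only. *Satb1* was detected in 82.4% of WT cells (80.2% to 84.5%) against 36.6% of DKO-severe cells (34.4% to 38.8%). *Lef1* was detected in 88.7% (86.8% to 90.5%) and 45.3% (43.0% to 47.6%), and *Bach2* in 85.8% (83.7% to 87.7%) and 47.4% (45.1% to 49.7%). *Ccr7* was detected in 46.7% (43.8% to 49.5%) and 14.2% (12.7% to 15.9%).

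The other 5 genes were detected more widely in DKO-severe Foxp3-negative cells than *Ccr7* and *Satb1*. *Foxp1* was detected in 95.1% of WT against 62.9% of DKO-severe cells, *Tcf7* in 80.3% and 53.0%, and *Klf2* in 76.0% and 55.6%. *Foxo1* was detected in 66.2% and 40.3%, and *Il7r* in 64.7% and 42.8%. In the same cells *Cd44* was detected in 14.1% of WT against 33.6% of DKO-severe cells.

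Free RNA can put UMIs in cells that do not express a gene, and the DKO-severe myeloid-gated cells (119 at equal depth, median 13329 UMIs before thinning) are a rough reference. Myeloid-gated and B-gated cells were required to have no *Cd3d*, *Cd3e* or *Cd3g* UMI. That rule removes cells with free *Cd3* RNA, so their shares of T cell genes may be too low. The myeloid gate held 87 cells before thinning, so it can include cells that lost *Cd3* UMIs in thinning. There *Tcf7* was detected in 1.68%, *Foxo1* and *Ccr7* in 3.36%, *Lef1* in 4.20%, *Bach2* in 5.88% and *Il7r* in 6.72% of cells. Of 189 DKO-severe B-gated cells, 2.12% had *Tcf7*, 12.2% *Lef1* and 14.3% *Il7r*. The DKO-severe T cell gates lay above these shares for *Lef1* (32.9% to 76.5%), *Tcf7* (29.3% to 57.7%) and *Il7r* (42.8% to 74.8%). Foxp3-negative cells of DKO-severe had a median of 7862 UMIs before thinning. *Ccr7* in Foxp3-positive cells was the nearest, at 9.76% (4.31% to 18.3%), an interval that overlaps that of the myeloid-gated cells (0.923% to 8.38%), so it is not set apart from background. *Klf2*, *Foxp1* and *Satb1* are used by other blood cells and were detected in 47.1%, 44.5% and 23.5% of the myeloid-gated cells, so these cells give no background for them. B cells use *Foxo1*, *Foxp1*, *Klf2*, *Bach2*, *Satb1* and *Ccr7* as well.

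**Figure D2:**
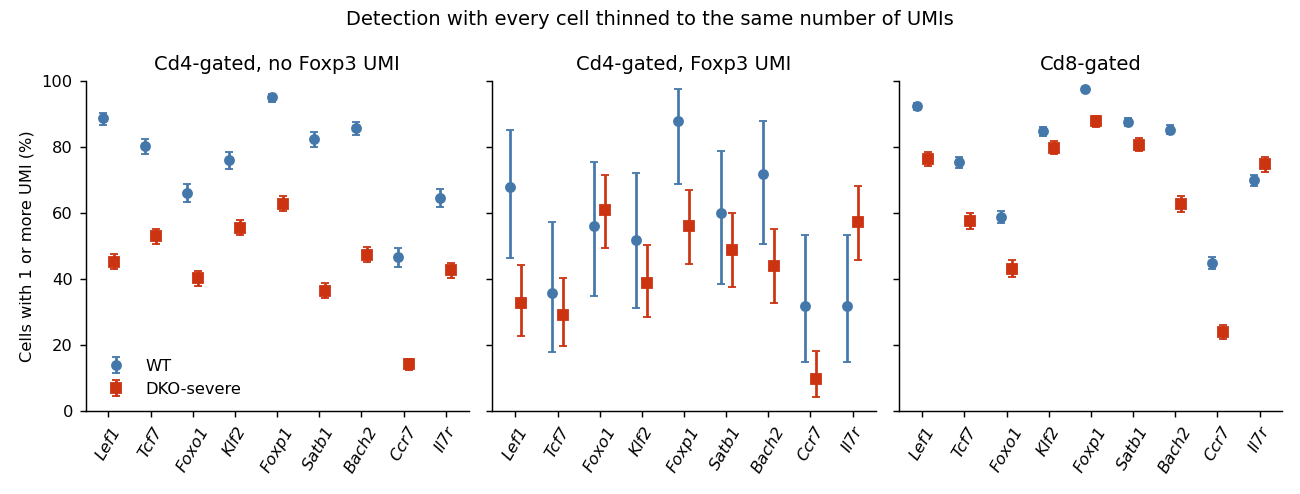
Share of cells with 1 or more UMI of each gene (%) after thinning to 3800 UMIs, for WT (circles) and DKO-severe (squares) in 3 gates, with exact 95% binomial intervals that cover counting error only. In Foxp3-negative cells all 9 pairs of intervals are apart, *Satb1* lying at 82.4% and 36.6%, whereas the 25 WT Foxp3-positive cells give wide intervals that mostly overlap.

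In Cd8 cells at equal depth 8 genes were detected in a lower share of DKO-severe cells with intervals apart, and *Il7r* in a higher share, 70.0% in WT (68.3% to 71.6%) and 74.8% in DKO-severe (72.6% to 76.9%). With another thinning seed the *Il7r* intervals overlapped. *Bach2* was detected in 85.3% of WT against 62.9% of DKO-severe Cd8 cells, *Ccr7* in 44.8% and 23.9%, and *Lef1* in 92.4% and 76.5%. *Klf2* was detected in 84.7% and 79.9%, and *Satb1* in 87.7% and 80.8%. In Foxp3-positive cells the intervals were apart for 2 of the 9 genes. These were *Lef1*, in 68.0% of 25 WT cells (46.5% to 85.1%) against 32.9% of 82 DKO-severe cells (22.9% to 44.2%), and *Foxp1*, in 88.0% (68.8% to 97.5%) and 56.1% (44.7% to 67.0%). *Il7r* was detected in 32.0% of WT (14.9% to 53.5%) and 57.3% of DKO-severe cells (45.9% to 68.2%), intervals that overlap. With another thinning seed they were apart, at 33.3% (18% to 51.8%) in 33 cells from WT against 64.3% (54.0% to 73.7%) in 98 from DKO-severe, so whether the intervals overlapped depended on the seed. That seed also gave intervals apart for 4 genes that were lower in DKO-severe.

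Fewer of the 9 genes were detected in a DKO-severe than in a WT Foxp3-negative cell. At equal depth a WT Foxp3-negative cell had a median of 7 of the 9 genes (quartiles 6 and 8), and a DKO-severe cell 4 (quartiles 3 and 5). At least 5 genes were detected in 90.3% of WT cells (88.5% to 91.9%) against 37.8% of DKO-severe cells (35.6% to 40.1%). No WT cell lacked all 9 (0 of 1217, which by a limit of 3 counts allows a share of up to 0.247%), while 44 DKO-severe cells did (2.37%, 1.73% to 3.17%). In Cd8 cells the medians were 7 and 6, and 5 or more genes were detected in 95.9% of WT against 79.7% of DKO-severe cells. In Foxp3-positive cells the medians were 5 and 4, with 5 or more genes in 60% (38.7% to 78.9%) and 30.5% (20.8% to 41.6%).

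**Figure D3:**
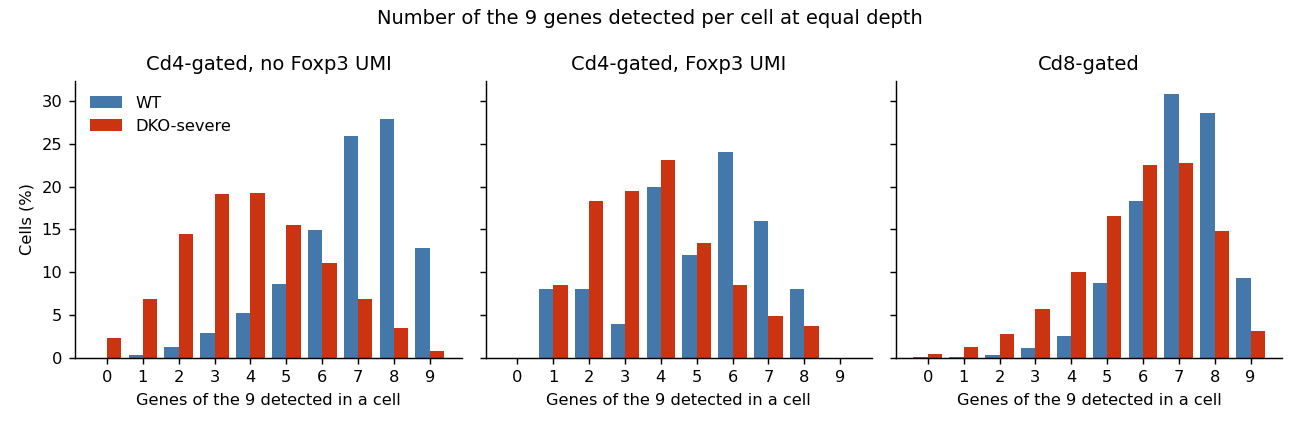
Share of cells (%) by how many of the 9 genes had a UMI after thinning to 3800 UMIs, for WT and DKO-severe in 3 gates. The Foxp3-negative distribution is centred on 7 genes in WT and on 4 in DKO-severe, while the Cd8 medians are 7 and 6.

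The split by *Cd44* asked which of the genes are lower in cells with RNA of this activation marker. Cells were split at equal depth by whether they held a *Cd44* UMI: in the Foxp3-negative gate 171 of 1217 cells did in WT against 624 of 1856 in DKO-severe, and in the Cd8 gate 297 of 2937 against 415 of 1560. A cell without a *Cd44* UMI may still express it, and the share that does was not measured. In WT Foxp3-negative cells 4 of the 9 genes were at a log2 ratio of -0.5 or lower in cells with *Cd44* against cells without, when 3.61% of all genes were. The median of the 9 was -0.38 against 0.15 over all genes.

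*Satb1*, *Bach2*, *Lef1* and *Ccr7* made up these 4. *Satb1* was at 984 CPM in WT cells without *Cd44* and 545 CPM with it, for a log2 ratio of -0.85 (-1.01 to -0.70). *Bach2* was at 896 and 539 CPM, -0.73 (-0.90 to -0.58), *Lef1* at 1199 and 729 CPM, -0.72 (-0.86 to -0.58), and *Ccr7* at 204 and 129 CPM, -0.65 (-0.997 to -0.33). *Foxp1* followed at -0.38 (-0.49 to -0.27) and *Klf2* at -0.26 (-0.43 to -0.10). *Tcf7* (-0.06, -0.23 to 0.11), *Il7r* (-0.09, -0.26 to 0.08) and *Foxo1* (-0.10, -0.32 to 0.10) had intervals that include 0, and *Tcf7* was at 526 and 506 CPM. *Lef1* stepped down with each further *Cd44* UMI in WT, at 1199, 855, 502 and 307 CPM in cells with 0, 1, 2 and 3 or more, while *Tcf7* was at 526, 513, 526 and 424 CPM. The last of these groups held 18 cells. In DKO-severe the same 4 groups had *Lef1* at 296, 206, 141 and 222 CPM, with no further step down in the last, which held 57 cells, and *Tcf7* at 304, 281, 240 and 199 CPM.

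In DKO-severe Foxp3-negative cells *Satb1*, *Lef1* and *Ccr7* had the lowest ratios, at lower levels than in WT. *Satb1* was at 290 CPM without *Cd44* and 175 CPM with it, -0.73 (-0.89 to -0.57), *Lef1* at 296 and 194 CPM, -0.61 (-0.76 to -0.45), and *Ccr7* at 54.5 and 36.7 CPM, -0.57 (-0.94 to -0.21). These 3 were at -0.5 or lower, against 0.858% of all genes, and the median of the 9 was -0.29. *Bach2* was at -0.37 (-0.50 to -0.23) and *Foxp1* at -0.16 (-0.28 to -0.05). *Klf2* was at -0.29 (-0.41 to -0.19) and *Tcf7* at -0.20 (-0.33 to -0.06), and the interval of *Foxo1* included 0 (-0.12, -0.30 to 0.06). *Il7r* was at 384 and 417 CPM, 0.12 (0.004 to 0.23), and changed sign to -0.16 when the cells were not thinned.

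In Cd8 cells *Ccr7* had the lowest ratio in both genotypes. It was at 179 CPM without and 99.2 CPM with *Cd44* in WT, -0.85 (-1.14 to -0.57), and at 92.4 and 45.7 CPM in DKO-severe, -1.02 (-1.40 to -0.65). *Lef1* was at -0.54 (-0.64 to -0.43) in WT and -0.38 (-0.50 to -0.26) in DKO-severe. There were 2 genes in WT and 1 in DKO-severe at -0.5 or lower, where 2.86% and 1.73% of all genes were, and the medians of the 9 were -0.28 and -0.11. *Il7r* was higher in Cd8 cells with *Cd44*, at 539 CPM without and 651 CPM with it in WT, 0.27 (0.16 to 0.38), and at 594 and 753 CPM in DKO-severe, 0.34 (0.24 to 0.44). *Satb1*, with a low ratio in both Foxp3-negative populations, was at -0.23 in WT and -0.004 (-0.11 to 0.10) in DKO-severe Cd8 cells. *Klf2* was at -0.28 (-0.41 to -0.17) in WT and 0.08 (-0.03 to 0.18) in DKO-severe. The Foxp3-positive gate held 7 WT and 23 DKO-severe cells with *Cd44*, too few for this split.

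Myeloid RNA moved with the *Cd44* split in some of these groups. In Cd8 cells the 6 myeloid markers summed to 152 CPM without and 329 CPM with *Cd44* in WT, and to 168 and 201 CPM in DKO-severe. *Lyz2*, the lysozyme of macrophages and neutrophils, was at 21.0 and 144 CPM in WT and at 7.35 and 45.0 CPM in DKO-severe. In Foxp3-negative cells the sums were 160 and 163 CPM in WT, and 803 and 478 CPM in DKO-severe, lower with *Cd44*. Without the cells holding 3 or more B cell or myeloid marker UMIs after thinning, an alternative chosen after seeing the data, the medians of the 9 genes were -0.35 in WT and -0.34 in DKO-severe Foxp3-negative cells, and -0.26 and -0.096 in Cd8 cells. *Ccr7* in Cd8 cells was then at -0.92 in WT and -0.99 in DKO-severe, and *Il7r* at 0.30 and 0.34.

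**Figure D4:**
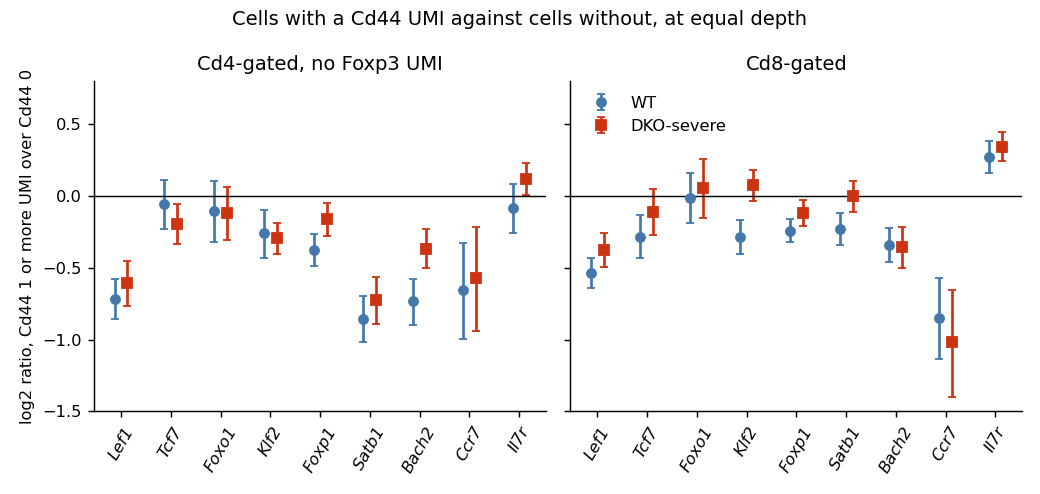
Log2 ratio of each gene in cells with 1 or more *Cd44* UMI over cells with 0, at equal depth, for WT (circles) and DKO-severe (squares), with exact 95% intervals of the counting error; the line marks 0. *Satb1*, *Lef1* and *Ccr7* are below -0.5 in both genotypes of the Foxp3-negative gate, *Tcf7* and *Foxo1* have intervals that include 0 in WT, and *Il7r* is above 0 in both genotypes of the Cd8 gate.

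Genotypes were also compared within cells split by *Cd44* UMI, a split that does not match the cells on activation. Among Foxp3-negative cells with no *Cd44* UMI (1046 WT, 1232 DKO-severe) the median of the 9 genes was -1.41, against -1.44 over all Foxp3-negative cells at equal depth. Of the 9, 6 were at -1 or lower, and the share of all genes is not given for these cells. *Lef1* was at 1199 CPM in WT against 296 CPM in DKO-severe in these cells, for a log2 ratio of -2.02 (-2.10 to -1.93). *Tcf7* was at 526 and 304 CPM, -0.79 (-0.89 to -0.69). Among cells with *Cd44* the median was -1.12, and *Lef1* was at 729 and 194 CPM. WT cells with *Cd44* thus had a higher *Lef1* CPM than DKO-severe cells without it.

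In Cd8 cells the median of the 9 genes was -0.69 without *Cd44* (2640 WT, 1145 DKO-severe) and -0.56 with it (297 and 415). *Il7r* was higher in DKO-severe in both, at 0.14 (0.07 to 0.21) and 0.21 (0.08 to 0.34). *Klf2* was at -0.21 (-0.27 to -0.14) without *Cd44* and 0.15 (0.005 to 0.30) with it, so its direction differed between these groups of cells, a difference that was not tested. *Satb1* was at -0.23 (-0.29 to -0.17) without *Cd44* and -0.006 (-0.14 to 0.13) with it.

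**Figure D5:**
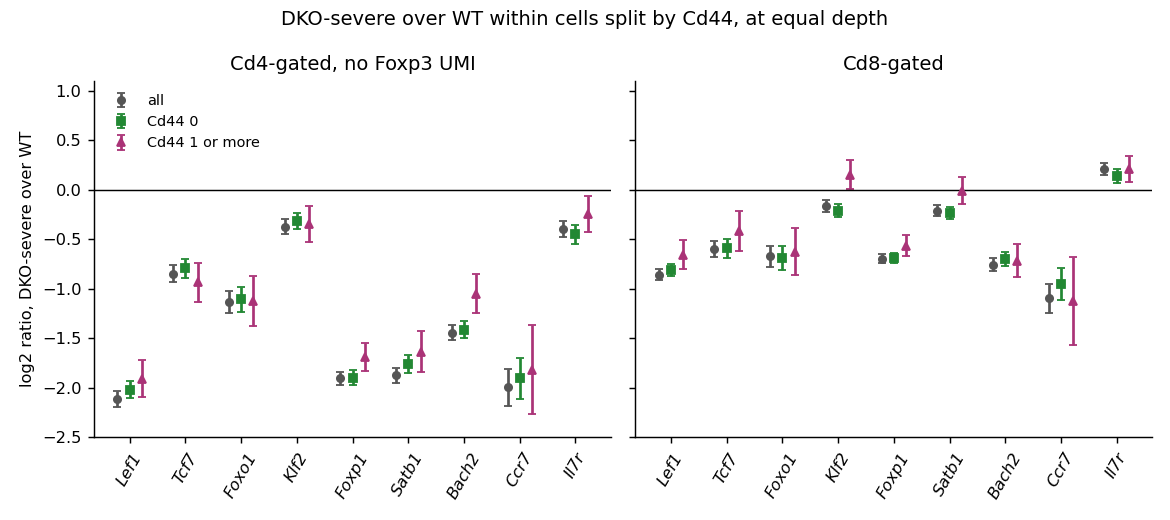
Log2 ratio of DKO-severe over WT at equal depth for all cells, cells with 0 *Cd44* UMIs and cells with 1 or more, with exact 95% intervals of the counting error; the line marks 0. In the Foxp3-negative gate *Lef1* lies between -2.11 and -1.91 and *Foxo1* between -1.13 and -1.11 in the 3 groups of cells.

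Within DKO-severe Foxp3-negative cells a split by *Pdcd1*, the gene of the inhibitory receptor PD-1, which is high on follicular helper cells, set the genes apart more widely than *Cd44*. This split was chosen after values were seen. *Satb1* was at 317 CPM in the 1312 cells without a *Pdcd1* UMI and 94.8 CPM in the 544 with one, for a log2 ratio of -1.74 (-1.96 to -1.52). *Il7r* was at 488 and 170 CPM, -1.52 (-1.68 to -1.36), and *Ccr7* at 58.6 and 24.2 CPM, -1.28 (-1.74 to -0.84). *Lef1* was at 292 and 190 CPM, -0.62 (-0.79 to -0.46), and *Tcf7* at 300 and 269 CPM, -0.15 (-0.30 to -0.01). *Foxp1*, *Bach2*, *Klf2* and *Foxo1* were at -0.51, -0.44, -0.40 and -0.39. In the *Cd44* split of the same cells *Il7r* was at 0.12. In WT the same split (48 cells with *Pdcd1*) gave -1.24 (-1.73 to -0.80) for *Il7r* and -0.02 for *Tcf7*. The other WT genes came in another order than in DKO-severe. *Klf2* was at -0.96, *Satb1* at -0.90, *Foxo1* at -0.87 and *Lef1* at -0.82. *Ccr7* was at -0.77, *Bach2* at -0.30 and *Foxp1* at -0.10. The share of all genes is not given for this split.

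Other genes of naive and resting T cells were counted from a list of 22. In Foxp3-negative cells 7 of them were at -1 or lower and none at 1 or higher, with a median of -0.45. Of all genes tested in this gate, 3.29% were at -1 or lower, with a median of 0.10. The lowest were *Dapl1*, at 269 CPM in WT against 27.9 CPM in DKO-severe (-3.27), and *Actn1*, which encodes an actin crosslinker, at 183 and 23.8 CPM (-2.94). The highest were *Vsir*, the gene of the inhibitory receptor VISTA, at 0.54, and *Slfn2*, a quiescence gene, at 0.34. In Foxp3-positive cells 10 of the 22 were at -1 or lower (median -0.77) and in Cd8 cells 3 (median -0.06). Of all genes tested, 5.7% and 0.872% were at -1 or lower in these gates, with medians of 0.05 and -0.01. The Cd8 median of the 22 was thus close to that of all genes. On a list of 16 activation and effector genes, 15 were at 1 or higher in Foxp3-negative cells and none at -1 or lower, with a median of 1.73. They ranged from *Cxcr3* (0.50) and *Tbx21* (1.00) to *S100a6* (3.56) and the chemokine *Ccl5* (3.57), and *Cd44* was at 57.2 and 127 CPM (1.15). As a base rate, 92.0% of all genes tested in this gate were at or below the ratio of *Tbx21*.

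Genes with profiles most like the 9 were sought over 8 groups of cells at equal depth (2 gates, 2 genotypes, with and without *Cd44*), by Pearson's r with the mean standardised profile of the 9 genes. The closest were *Npc2* (0.982), *Scml4* (0.981), *Vipr1* (0.980), *Actn1* (0.980) and *Sgk3* (0.977). *Scml4*, for example, was at 408 CPM in WT against 175 CPM in DKO-severe Foxp3-negative cells without *Cd44*. The 8 groups come from 2 mice and 1 library, so r describes these groups only. Of the 9 genes themselves *Lef1* (0.996) and *Foxp1* (0.984) were nearest to their shared profile and *Tcf7* (0.782) and *Il7r* (0.488) farthest. Each of the 9 is part of that mean profile, which raises its r, so these values do not compare with those of the other genes.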

How the data were processed

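Cells with the αβ T cell receptor from 1 WT and 1 DKO-severe mouse were profiled by 10x Genomics chemistry (3′ v3.1). The deposited matrices, 1 per genotype, hold raw UMI counts, which the authors obtained by running Cell Ranger (7.1.0 in the matrix header) on mm10. The submitters' processing notes also name Seurat. The authors' cell filters, and whether reads in introns were counted, are not given in the sources used here. The matrices share no barcode, and genotype was read from the hashtag.

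Barcodes with a higher count of the other hashtag (3 WT), with under 500 genes or with over 10% mitochondrial UMIs were left out. Doublet scores came from Scrublet in scanpy 1.11.5. Since its own cutoff marked 0 barcodes, the top 6% by score were dropped per matrix. Total counts were 45294779 UMIs in WT and 69692053 in DKO-severe. Of the retained cells, 1787 WT (27.1%) and 1887 DKO-severe (29.7%) were in none of the 3 gates.

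Counts were summed over gated cells and given as CPM, with log2 ratios and exact conditional binomial intervals (95%). A floor of 3 UMIs stood in for lower sums. For shares and splits each cell was thinned to 3800 UMIs and gated afterwards. This left out 695 WT (10.6%) and 477 DKO-severe (7.50%) shallower cells, and intervals are Clopper-Pearson. Intervals cover counting error only. Steps were tested on simulated counts. Genes at a mean of 20 CPM or more over both groups form the comparison with all genes. The 9 genes and all lists were chosen with earlier results of these data known. Named from each further list were the 2 lowest and 2 highest ratios in Foxp3-negative cells, with *Cd44*, and the 5 genes with the nearest profile. The gene annotation was GENCODE vM21. Alternatives to scaling, gates, doublet removal, depth and seed were run. Results that need 1 further planned marker are not reported here.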

Additional observations from a re-analysis of the deposited data

Results flagged for a closer look

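*Il7r* had opposite directions in different gates. Its log2 ratio of DKO-severe over WT was -0.63 in Foxp3-negative cells, 0.82 in Foxp3-positive cells and 0.19 in Cd8 cells, each with a counting interval that excludes 0. The difference between gates was not tested, because each gate has 1 mouse per genotype. Counted as mean UMIs per cell without scaling, *Il7r* was at 0.093 in Foxp3-negative cells, so the opposite sign rests on scaling to the total. At equal depth the 3 values were -0.40, 1.64 and 0.21. Without cells holding B cell or myeloid marker UMIs they were -0.30, 1.32 and 0.24.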

How the results depend on the processing

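The median log2 ratio of the 9 genes, DKO-severe over WT, kept its sign in the 3 gates under every alternative run. In Foxp3-negative cells it was -1.74 without immunoglobulin, haemoglobin, mitochondrial and ribosomal protein genes, -1.69 centred on all genes, -0.86 as mean UMIs per cell, -1.39 with cells weighted equally, -1.67 with gates of 2 or more UMIs, -1.40 with or without *Cd4*, -1.47 with no doublets removed, -1.31 without marker-bearing cells, -1.41 without cycling cells and -1.44 thinned. In Foxp3-positive cells it was -0.12 as mean UMIs per cell, with 1 gene at -1 or lower in place of 5, -1.44 with gates of 2 or more UMIs and -0.96 thinned. In Cd8 cells it was -0.19 as mean UMIs per cell, with 0 genes at -1 or lower in place of 1. The count in Foxp3-negative cells ran from 4 (mean UMIs per cell) to 7. *Tcf7* passed -1 when centred on all genes (-1.09), and its lowest value over 12 alternatives was -1.15. The share of all genes at -1 or lower is not given for these alternatives. Mean UMIs per cell follow the deeper DKO-severe cells, and turned *Klf2* to 0.30 and *Il7r* to 0.093 in Foxp3-negative cells, *Tcf7* to 0.54, *Klf2* to 0.51 and *Foxo1* to 0.33 in Foxp3-positive cells, and *Klf2* to 0.23 and *Satb1* to 0.36 in Cd8 cells. Thinning turned *Foxo1* to 0.14 in Foxp3-positive cells, where 25 WT cells remained. For *Cd44*, the WT Foxp3-negative median was -0.78 with 2 or more *Cd44* UMIs against 0, -0.58 unthinned and -0.51 without the 4 gene classes, and the DKO-severe median -0.47 for 2 or more UMIs and -0.47 unthinned. Unthinned counts turned *Il7r* to -0.16 in DKO-severe Foxp3-negative and *Foxp1* to 0.027 in DKO-severe Cd8 cells. With all genes at 5 CPM or more, the shares at -1 or lower were 4.22%, 8.56% and 1.44% in the 3 gates. No paired analysis was possible because there is 1 mouse per genotype and the values come from no test.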

Other observations

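Low ratios were more frequent among longer genes over the whole table. In Foxp3-negative cells the share of genes at a log2 ratio of -1 or lower was 1.29% for genes spanning under 10 kb, 2.94% from 10 to 50 kb, 3.91% from 50 to 100 kb and 6.11% at 100 kb or more, and in Foxp3-positive cells 2.21%, 4.93%, 7.12% and 11.0%. In Cd8 cells the shares were 0.570%, 0.684%, 0.829% and 1.88%. *Foxp1* (597 kb), *Bach2* (347 kb) and *Lef1* (114 kb) are in the longest class, with *Satb1* at 97.1 kb and *Foxo1* at 84.9 kb in the next, while *Klf2* (2.62 kb), *Ccr7* (10.9 kb), *Il7r* (24.4 kb) and *Tcf7* (30.6 kb) are shorter. *Ccr7* had a log2 ratio of -1.96 in Foxp3-negative cells at 10.9 kb. The part of gene span in the ratios was not tested beyond these shares.

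Within the DKO-severe Foxp3-negative gate the other genes differed to unequal degrees between cells with and without a *Lef1* UMI. Cells with a *Lef1* UMI (840) against those without (1016), a split chosen after values were seen, had *Satb1* at 341 against 177 CPM (log2 ratio 0.94), *Bach2* at 407 against 232 CPM (0.81) and *Ccr7* at 62.3 against 37.0 CPM (0.75). *Foxp1* was at 0.62, *Klf2* at 0.51 and *Tcf7* at 0.50. *Il7r* was at 431 against 365 CPM (0.24), and *Foxo1* at 169 against 155 CPM (0.12, with an interval of -0.05 to 0.29). The same split was made in WT, with 1080 cells against 137. There *Satb1* was at 1.58, *Bach2* at 1.36, *Ccr7* at 1.16 and *Foxp1* at 0.99. *Tcf7* was at 0.57, *Foxo1* at 0.44, *Klf2* at 0.40 and *Il7r* at 0.05. The share of all genes is not given for this split.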
